A study of Mus musculus with 60 samples.

Results

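Snhg1, Snhg4, Snhg6, Snhg8, Snhg11, Snhg12 and Gas5 are host genes of small nucleolar RNAs (snoRNAs), described here in mouse brain. These 7 genes, of 47574 gene entries in the deposited tables, were taken by gene name. The set was chosen by measured values, because Snhg4 had been lower in an earlier comparison of labelled groups of these same libraries. Snhg4 is therefore described without a test, and every count of genes that passed a test covers the remaining 6 members. RNA-Seq of total RNA depleted of rRNA gave 60 libraries from c57BL-6N mice aged 3 months, in 10 groups of 6, each of 3 males and 3 females. The Δ12 line carries a CRISPR deletion within exon 12 of Htt, the huntingtin gene, and was sampled as +/+, Δ12/+ and Δ12/Δ12. The KO allele arose in 1 founder of the same editing and lacks the exon's splice donor, and the KO line was sampled as +/+ and KO/+. Each genotype was labelled for cortex and for striatum under the same mouse numbers, and the labels name no treatment. The labels number the males and females of a group separately, so the spread between libraries of a group is taken as that between animals.

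Most vertebrate snoRNAs are cut from introns. The host transcript is spliced, the intron lariat is opened, and trimming stops where core proteins cover the snoRNA. C/D box snoRNAs guide ribose methylation and H/ACA box snoRNAs guide pseudouridylation, mainly of ribosomal RNA. The spliced exons of several noncoding hosts are exported, engaged by ribosomes over short reading frames and removed by nonsense-mediated decay, so their steady level depends on decay as well as on transcription. Many such hosts start with a terminal oligopyrimidine tract, the element that ribosomal protein genes use. Gas5 was first known as a transcript that accumulates in growth-arrested cells, and Snhg11 is a host with high expression in brain.

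Every member except Snhg4 is represented by the DNA of a snoRNA within its locus, to show what these loci carry. Sequences are from GRCm38 on the strand of the host, with GENCODE M21 annotation. In C/D snoRNAs the capitals mark the letters TGATGA (box C) and a later CTGA (box D), and in H/ACA snoRNAs they mark ACA within the last 8 bases. Of 1507 annotated snoRNA genes, 24.0% hold TGATGA followed by CTGA and 46.8% hold ACA within the last 8 bases, with matches read on the transcribed strand. All snoRNAs printed here hold their letters, but others of these hosts do not, among them Gm22489 and Snord78 in Gas5, Snord22 in Snhg1 and Snora44 in Snhg12. Snora61 lies within an exon of 4 annotated Snhg12 transcripts.
Gm23246 in Snhg1 (C/D, chr19:8725594-8725660, plus strand): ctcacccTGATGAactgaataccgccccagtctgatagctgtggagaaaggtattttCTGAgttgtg
Snord87 in Snhg6 (C/D, chr1:9942463-9942549, minus strand): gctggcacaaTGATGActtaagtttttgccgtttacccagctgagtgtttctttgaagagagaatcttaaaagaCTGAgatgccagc
Snord47 in Gas5 (C/D, chr1:161038082-161038158, plus strand): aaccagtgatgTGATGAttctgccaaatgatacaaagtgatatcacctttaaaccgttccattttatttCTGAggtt
Snora24 in Snhg8 (H/ACA, chr3:123507937-123508066, minus strand): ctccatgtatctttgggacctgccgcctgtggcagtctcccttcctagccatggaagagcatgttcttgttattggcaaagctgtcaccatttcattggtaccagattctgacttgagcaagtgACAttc
Gm25129 in Snhg11 (H/ACA, chr2:158379534-158379666, plus strand): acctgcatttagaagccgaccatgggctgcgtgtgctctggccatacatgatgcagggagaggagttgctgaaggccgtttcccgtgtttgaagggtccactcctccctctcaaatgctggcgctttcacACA
Snora61 in Snhg12 (H/ACA, chr4:132310240-132310369, plus strand): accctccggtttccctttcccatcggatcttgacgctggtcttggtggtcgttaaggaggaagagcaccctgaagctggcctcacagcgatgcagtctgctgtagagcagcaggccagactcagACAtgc

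The loci ranged from 853 bases for Snhg8 to 10508 bases for Snhg11 and held 29 snoRNA entries of the tables. Gas5 held 10, Snhg1 8, Snhg12 5, Snhg4 and Snhg11 2 each, and Snhg6 and Snhg8 1 each. Snord80 in Gas5 and Snora16a in Snhg12 are each entered 2 times at nearly the same position, which leaves 27 distinct names. One of the Snhg4 entries is typed as a snoRNA by M21 but named Mir1949, as is a miRNA entry that overlaps it. Snhg1 lies at chr19:8723475-8726443, and 14 of its 18 annotated transcripts retain an intron. Gas5 lies at chr1:161034422-161038539 with 25 transcripts, of which 20 retain an intron. Snhg6 overlaps Mcmdc2 and Gas5 overlaps Zbtb37, each on the opposite strand, and the Snhg4 locus overlaps Gm28285 and the miRNA entries Mir1949 and Gm49347, so values of these members may share reads with their neighbours. Whether strand was used in the quantification is not given in the sources used here. M21 types Snhg11 as protein-coding and the other matched members as noncoding.

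The transcription start regions show how unlike the members are at the position where an oligopyrimidine tract would lie. RefSeq (GRCm38.p6) gave a promoter for 5 of the 7 members, all but Snhg4 and Snhg6, with a pair of starts for Gas5. Each line below holds 10 bases before the annotated start and 30 from it, with the longest run of C or T within the first 20 transcribed bases in capitals.
Snhg1 (chr19:8723477-8723516, plus strand): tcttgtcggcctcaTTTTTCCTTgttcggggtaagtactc
Snhg8 (chr3:123508307-123508346, minus strand): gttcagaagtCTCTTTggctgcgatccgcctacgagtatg
Snhg12 (chr4:132308668-132308707, plus strand): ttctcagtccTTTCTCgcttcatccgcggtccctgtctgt
Gas5, downstream start (chr1:161035156-161035195, plus strand): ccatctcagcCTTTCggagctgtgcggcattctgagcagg
Gas5, upstream start (chr1:161034591-161034630, plus strand): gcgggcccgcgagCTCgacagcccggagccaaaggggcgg
Snhg11 (chr2:158375703-158375742, plus strand): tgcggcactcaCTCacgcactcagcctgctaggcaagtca
The Snhg1 run of 9 pyrimidines has an equal or longer one in 4.2% of 32851 RefSeq promoters. Snhg8 and Snhg12 begin with 6 pyrimidines from the first base, as many as 2.93% of promoters, and the downstream Gas5 start begins with 5, as many as 4.44%. By the longest run, as used for Snhg1, the shares are 18.9% for Snhg8 and Snhg12 and 32.8% for the downstream Gas5 start. Counted from the first base, Snhg1 has 3 pyrimidines (10.7%), and the upstream Gas5 start and Snhg11 have 0. The longest run at the upstream Gas5 start and at Snhg11 was 3, which 76.8% of promoters reach. These matches are descriptions of letters and not evidence that a tract is used.

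The labelled tissue was checked against markers before any comparison. Slc17a7, the vesicular glutamate transporter of cortical excitatory neurons, was 120.8 to 233.8 FPKM in 30 libraries and 4.81 to 64.8 FPKM in the other 30. These sets, cut at 100 FPKM, are called cortex-like and striatum-like, and they did not follow the tissue labels. All libraries labelled Δ12 line +/+ or Δ12/+ and the male Δ12/Δ12 libraries were cortex-like, in both labelled tissues. The 6 female Δ12/Δ12 libraries and all 24 KO line libraries were striatum-like. The summed level of 8 striatal projection neuron markers was 106 to 562 scaled FPKM in cortex-like libraries and 1071 to 2068 in striatum-like ones, and all 8 genes were lower in cortex-like libraries without overlap. The summed level of 6 cortical markers was 164 to 296 against 33.4 to 128, with Slc17a7 and Mef2c free of overlap. Choroid plexus, oligodendrocyte and microglial marker sums were 1.63 to 374, 211 to 385 and 18.2 to 35.1 in cortex-like libraries and 31.7 to 2074, 449 to 743 and 37.4 to 52.1 in striatum-like ones, although the oligodendrocyte gene Mog had a median of 42.3 against 31.5. Leptomeningeal sums were 4.21 to 15.4 against 2.58 to 7.67 and endothelial sums 25.1 to 56.3 against 21.8 to 35.4. The endothelial genes differed in direction, with medians of 33.7 against 14.4 for Cldn5, 1.59 against 9.65 for Flt1 and 1.55 against 3.88 for Pecam1. Astrocyte sums were 118 to 190 against 109 to 175, and sums of general neuronal markers 343 to 565 against 418 to 506. Of the neuronal genes, Rbfox3 had a median of 15.7 against 53.3 without overlap, Snap25 300 against 250 and Syt1 123 against 150. The part of these cell types in the results below was not tested. Htt, the edited gene, was at or above the lowest +/+ library of its line and tissue in 6 of 12 KO/+ libraries, and a gene-level value cannot show a deletion within an exon. Estimated depth was 12700000 to 19400000 fragments in cortex-like and 16400000 to 27500000 in striatum-like libraries. Line and class coincide in the +/+ and heterozygous libraries and cannot be told apart there. In the female Δ12/Δ12 libraries class differs within the Δ12 line, and there it coincides with labelled sex. In this bulk RNA, fewer cells of a type and less RNA per cell cannot be told apart either.

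Snhg1 and Snhg4 separated the classes completely, while the remaining 5 members overlapped. Of all 16076 entries with a mean of at least 0.5, 36.2% had class ranges without overlap and 16.9% were higher in cortex-like libraries. The 2 of 7 members are to be read against those shares. Without Snhg4, which was picked on these same libraries, the count was 1 of 6. The classes were set from a measured gene and carry no test. Values below are scaled FPKM, that is, deposited FPKM (fragments normalised to transcript length and library depth) brought to a common library scale by median-of-ratios size factors. Levels of different genes can be compared only roughly, because a shift with transcript length between the classes, described below, was not removed.

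Snhg1, which carries 8 snoRNA entries, had a lowest, median and highest level of 7.75, 15.5 and 52.1 in the 30 cortex-like libraries. In the 30 striatum-like libraries the values were 2.35, 3.81 and 5.92. The medians differed 4.05-fold, and the lowest cortex-like library lay above the highest striatum-like one. The log2 difference of the medians was 1.89 (SD within the classes 0.47 and 0.30 on the log2 scale). For this and every class log2 difference below, 0.5 was added before taking logs, so it is smaller than the log2 of the fold. Snhg4, host of Snora74a, had 11.4, 20.8 and 64.3 in cortex-like and 2.81, 4.11 and 6.90 in striatum-like libraries. Its medians differed 5.06-fold, and again no library crossed. The deposited confidence interval of a single Snhg1 value was wide, with a median half-width of 24.9% of the value in cortex-like and 62.6% in striatum-like libraries.

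Snhg12, a host of both box classes, had 6.99, 11.7 and 32.4 in cortex-like and 4.05, 7.02 and 10.5 in striatum-like libraries, 1.67-fold between medians. Of the 30 cortex-like libraries, 8 fell within the striatum-like range. Snhg6, host of Snord87, had 8.70, 12.6 and 18.3 in cortex-like and 4.92, 8.64 and 12.4 in striatum-like libraries, 1.46-fold between medians. Here 14 cortex-like libraries fell within the striatum-like range.

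Snhg8, host of Snora24, had 11.6, 20.2 and 38.0 in cortex-like and 13.1, 18.4 and 22.9 in striatum-like libraries. All 30 striatum-like values lay inside the cortex-like range. Snhg11 had 48.0, 64.2 and 89.1 in cortex-like and 34.1, 59.5 and 85.2 in striatum-like libraries, 1.08-fold between medians. Gas5, which holds the most snoRNAs of the set, was the only member with a lower cortex-like median, with 7.94, 26.0 and 32.7 in cortex-like and 21.8, 29.8 and 36.6 in striatum-like libraries. Its cortex-like values spread 4.12-fold from lowest to highest and its striatum-like values 1.68-fold. The median log2 difference was 0.52 over the 7 members and 0.32 without Snhg4, beside -0.03 over all 16076 entries.

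**Figure D1:**
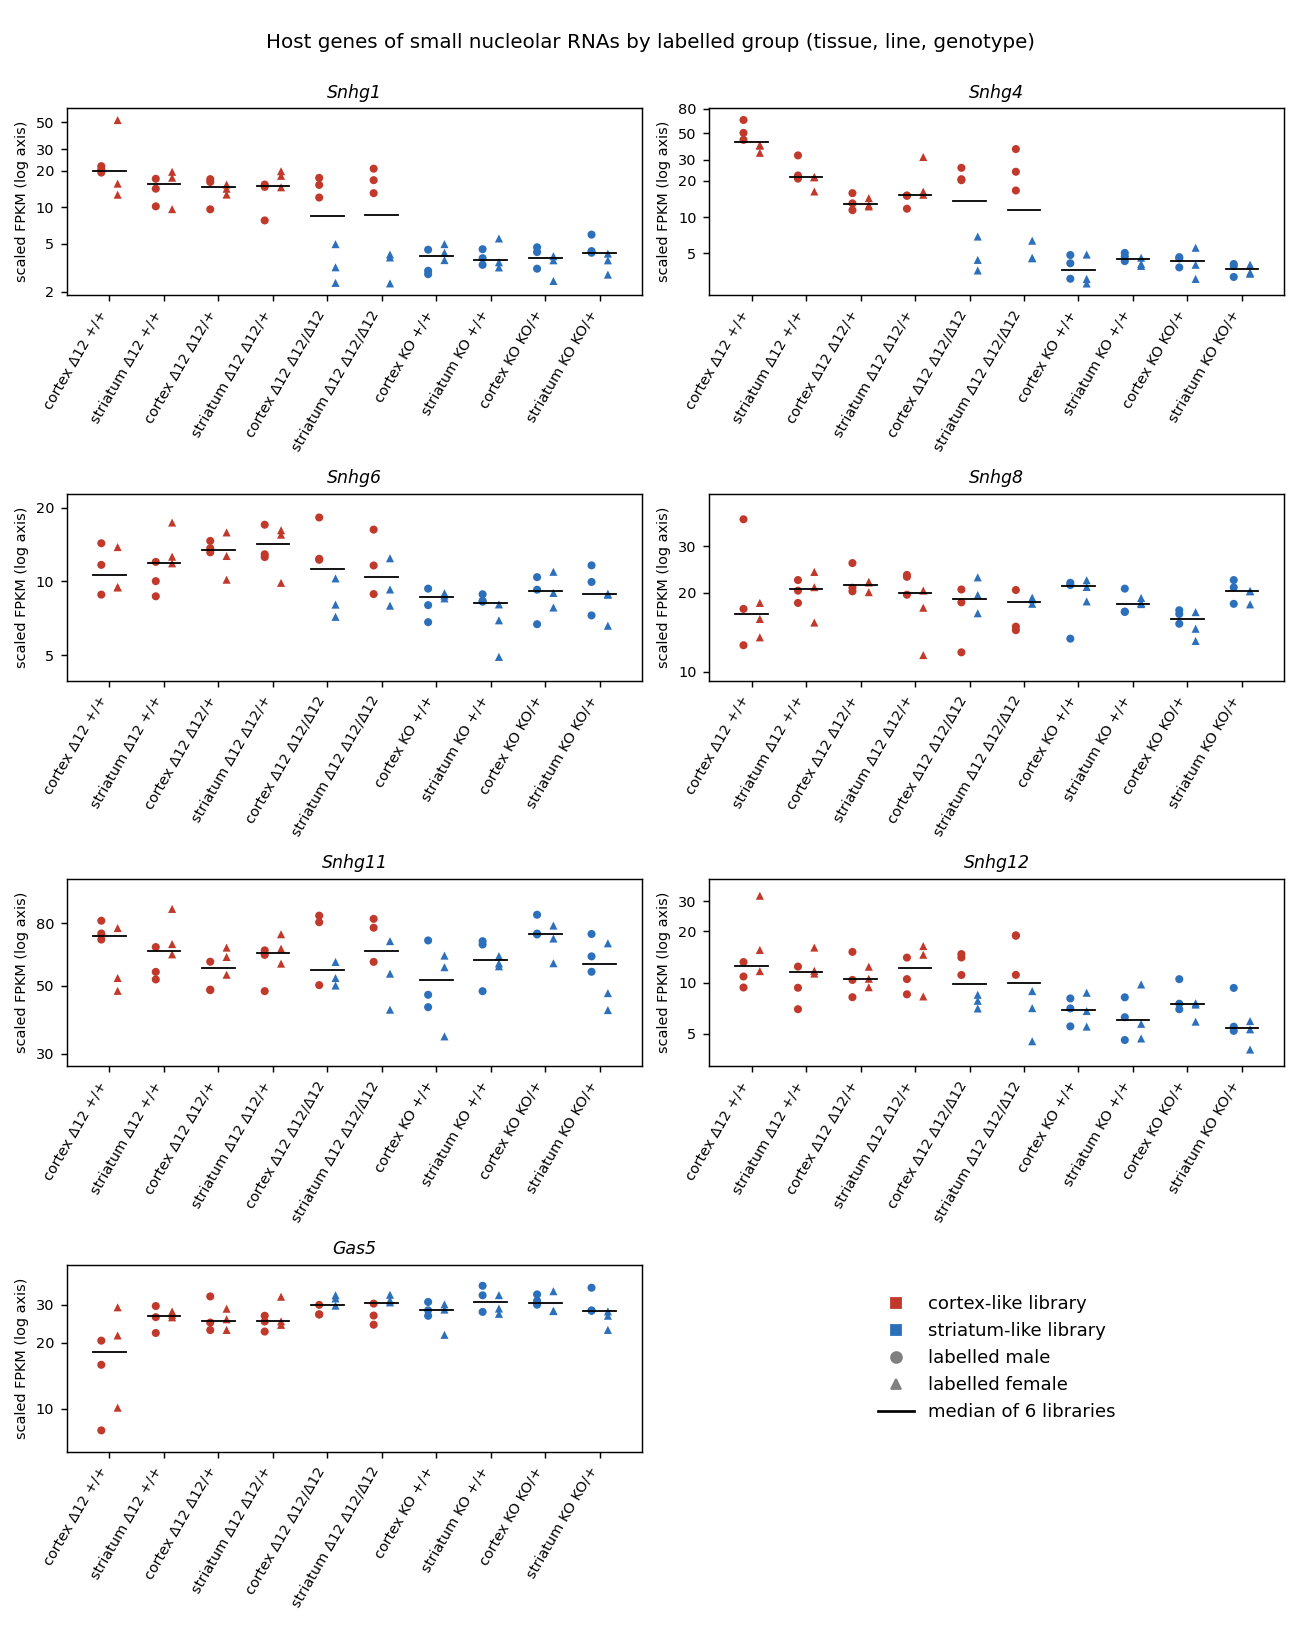
Scaled FPKM of each member (log axis) in each library, by labelled group, with cortex-like and striatum-like libraries in separate colours. Snhg1 and Snhg4 fall into separate bands by class, with Snhg1 at 7.75 to 52.1 against 2.35 to 5.92, while Snhg8, Snhg11 and Gas5 overlap between classes.

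By labelled group, the medians of Snhg6 ran from 8.16 in striatum KO line +/+ to 14.2 in striatum Δ12/+, those of Snhg8 from 15.9 in cortex KO/+ to 21.4 in cortex Δ12/+, and those of Snhg11 from 52.1 in cortex KO line +/+ to 73.7 in cortex KO/+. Gas5 had its lowest median, 18.2, in cortex Δ12 line +/+, and medians of 25.1 to 30.9 in the remaining groups. The Gas5 libraries of cortex Δ12 line +/+ were 7.94, 15.9 and 20.5 in males and 10.1, 21.7 and 29.2 in females. Of these, 5 lay below the lowest library of every other group, 21.8. Snhg12 medians ran from 5.42 in striatum KO/+ to 12.4 in cortex Δ12 line +/+, and the highest Snhg12 and Snhg1 values of the study came from a single library, female 1 of cortex Δ12 line +/+.

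The order of levels also differed by class, on values not adjusted for the shift with transcript length described below. In cortex-like libraries the medians ran from Snhg11 through Gas5, Snhg4, Snhg8, Snhg1 and Snhg6 to Snhg12, and the ranges of neighbours in that order overlapped except between Snhg11 and Gas5. In striatum-like libraries the order was Snhg11, Gas5, Snhg8, Snhg6, Snhg12, Snhg4 and Snhg1, and neighbours overlapped except between Snhg8 and Snhg6. Snhg11 had the highest median and Gas5 the next in both classes. Snhg4 and Snhg1 took the last places in striatum-like libraries.

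The Δ12/Δ12 mice showed the class split within a single genotype label. In the males Snhg1 was 12.0 to 20.7 over 6 libraries of both tissues, and in the females it was 2.35 to 4.94. Male Snhg4 was 16.7 to 36.8 and female Snhg4 3.60 to 6.90. The KO line gave 2.46 to 5.92 for Snhg1 and 2.81 to 5.57 for Snhg4 over 24 libraries, and the medians of the female Δ12/Δ12 libraries, 3.51 and 4.57, lay inside those ranges. Gas5 ran the other way, at 24.3 to 30.3 in the males and 29.7 to 33.3 in the females, with overlap. Snhg8 overlapped as well, at 11.9 to 20.6 in males and 16.7 to 22.9 in females. Labelled sex and class coincide in these 12 libraries and cannot be told apart.

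Transcript length moved with the class difference across the tables and is given beside it. Across the 15986 entries with a length (99.4% of those measured), the class difference had a Spearman rho of -0.37 with the longest annotated transcript and -0.03 with GC content, as a description over entries that share the same libraries. Entries of 501 to 1000 bases had a median log2 difference of 0.83, entries of 2001 to 4000 bases -0.07 and entries above 8000 bases -0.82. A score of short against long genes was 0.185 to 0.893 in cortex-like and -0.787 to -0.644 in striatum-like libraries. Snhg1, with a longest transcript of 2728 bases, was at 1.89 against that bin median of -0.07. Gas5, at 2556 bases in the same bin, was at -0.20. Of the transcripts of these 2 genes, 14 of 18 and 20 of 25 retain an intron, and the Snhg1 locus spans 2969 bases. Their spliced RNAs may therefore be shorter and belong to another bin. The bins of 1 to 500, 501 to 1000 and 1001 to 2000 bases had medians of 0.0, 0.83 and 0.51. Snhg6 and Snhg8, at 816 and 776 bases, were at 0.52 and 0.13, both below their bin median of 0.83. Snhg12, at 1538 bases, was at 0.70 beside 0.51, and Snhg11, at 5864 bases, was at 0.11 beside -0.52. Snhg4 had no M21 entry of its identifier and so no length. The score had an r of 0.09 with Snhg1 and 0.16 with Snhg4 within the cortex-like libraries and of -0.38 and 0.31 within the striatum-like ones, and its part in the class difference was not tested.

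**Figure D2:**
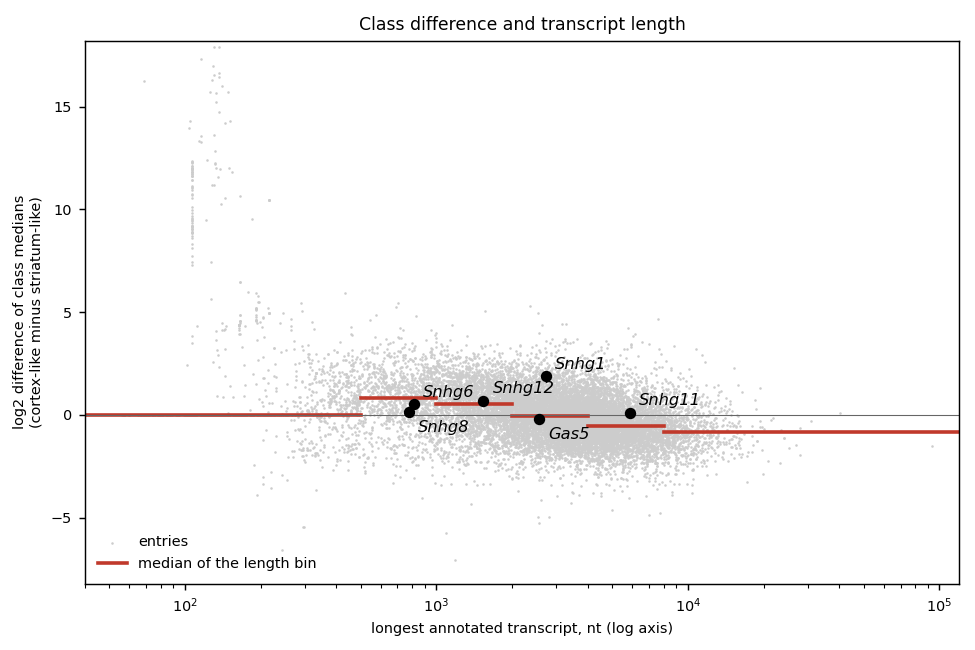
Log2 difference of class medians (cortex-like minus striatum-like, vertical axis) against longest annotated transcript in bases (log axis) for entries with a mean of at least 0.5 (grey), with the median of each length bin (red lines) and 6 members labelled. Snhg1 stands at 1.89 over a bin median of -0.07, while Snhg6 and Snhg8 sit under theirs. The spliced RNAs of Snhg1 and Gas5 may be shorter than the length shown.

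The hosted snoRNAs themselves were mostly without a value. Of the 29 snoRNA entries in the member loci, 4 reached 0.01 FPKM in any library, a floor chosen after the values were seen because many smaller values are numerically close to 0. In the tables as a whole, 263 of 1504 snoRNA entries reached it, or 17.5%. The shortest of the 4 was 133 bases, and none of the 19 entries under 100 bases reached the floor, Snord47 and Snord87 among them, beside 134 of 456 such entries (29.4%) in the tables. Snora74a in Snhg4 reached it in 57 libraries, with medians of 1704 scaled FPKM in cortex-like and 30.3 in striatum-like libraries. An exon of 1 retained-intron transcript of AC121821.1, the M21 gene at the Snhg4 locus, covers Snora74a, so reads of that host isoform and of the snoRNA cannot be told apart. Gm25129 in Snhg11, printed above, reached the floor in 48 libraries, in 30 of 30 cortex-like and 18 of 30 striatum-like ones. Its medians were 151050 and 11883 scaled FPKM. The pair of Snora16a entries in Snhg12 made up the rest. FPKM of such short entries rests on a very small effective length, so these values are not set against those of the hosts.

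Within a class the members did not move as a block. Among the 30 cortex-like libraries, Snhg1 had a Pearson r of 0.61 with Snhg12 and 0.55 with Snhg4. Gas5 had -0.53 with Snhg1 and -0.59 with Snhg4 in the same libraries. In the 30 striatum-like libraries the r of Snhg1 was 0.02 with Snhg12 and -0.47 with Snhg4, and that of Gas5 was -0.04 with Snhg1 and 0.32 with Snhg4. None of these 4 values was similar in both classes. They are the pairs of members with the largest absolute r in cortex-like libraries, a choice that favours smaller values in the other class. Some other pairs kept their sign, such as Snhg8 with Snhg11 (-0.22 in cortex-like and -0.43 in striatum-like libraries). These points share libraries, groups and depth, and are descriptions.

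The entries most like each member were ranked by the smaller of the Pearson r in the cortex-like and in the striatum-like libraries, 30 each, over 6816 to 6818 entries. Snhg11 had the closest companions, Srrm2, a splicing factor (0.82 and 0.86), Arglu1 (0.78 and 0.84) and Ttc14 (0.79 and 0.77). Snhg4 was followed by short RNA entries, the misc_RNA Gm26461 of 290 bases (0.94 and 0.56) and the snRNA entries Gm26316 (0.90 and 0.55) and Gm23971 (0.87 and 0.54), each of 191 bases. Gas5 was followed by 2610203C20Rik (0.62 and 0.55), Fbxl20 and Cgrrf1. Snhg1 had no close companion, with Gtf2h5 first at 0.59 and 0.44, and Snhg6 (Srsf9 first, 0.48 and 0.44), Snhg8 (Ppp1r7 first, 0.46 and 0.55) and Snhg12 (Fyttd1 first, 0.49 and 0.41) had similarly low values. Of the 21 entries so named, 10 were also among the first 3 by Spearman rho. By member these were 3 for Snhg11, 2 each for Snhg4 and Snhg6, 1 each for Snhg1, Snhg8 and Snhg12, and 0 for Gas5.

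Other genes of the snoRNA pathway were described by class from lists chosen with earlier results known. Of 16 measured entries of other noncoding hosts, 3 were higher in cortex-like libraries without overlap, 1 was lower and 12 overlapped, with a median log2 difference of 0.0. Snhg14 alone accounts for 7 of these entries, 1 higher and 1 lower, with a median of -1.16. The 9 entries of the remaining hosts had 2 higher and 0 lower, with a median of 0.64. They include Snhg7 and Snhg9, short entries of 139 and 183 bases with medians of 0 in both classes. Snhg20 had a median of 39.8 against 4.82 and Snhg3 14.5 against 2.54. Of 11 protein-coding hosts, 7 were higher, 2 lower and 2 overlapped, with a median of 1.07. Gnb2l1, which encodes the ribosomal scaffold RACK1, had 357 against 51.4, and Eef1b2, an elongation factor subunit, 160 against 35.3. Ncl, which encodes nucleolin, had 3.71 against 18.3, and the elongation factor gene Eef2 63.2 against 193. Snhg10, Snhg15, Snhg16 and Zfas1 were not analysed here.

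Of 8 genes of snoRNP core proteins, 4 were higher and 1 was lower in cortex-like libraries, and of 9 assembly factors 3 were higher and none lower. Nop56 is both a core protein gene and a protein-coding host, so it counts in both lists here and in the comparisons below. The core gene Nop10 had 31.1 against 8.10, Gar1 1.43 against 5.95, and the assembly factor gene Znhit3 96.1 against 5.52. Of 10 genes of nonsense-mediated decay none was higher and 4 were lower, with a median of -0.76. Upf1, the helicase of that pathway, had 5.26 against 11.7, and Upf3b 0.567 against 3.83. These counts stand beside the 36.2% of all entries without overlap.

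**Figure D3:**
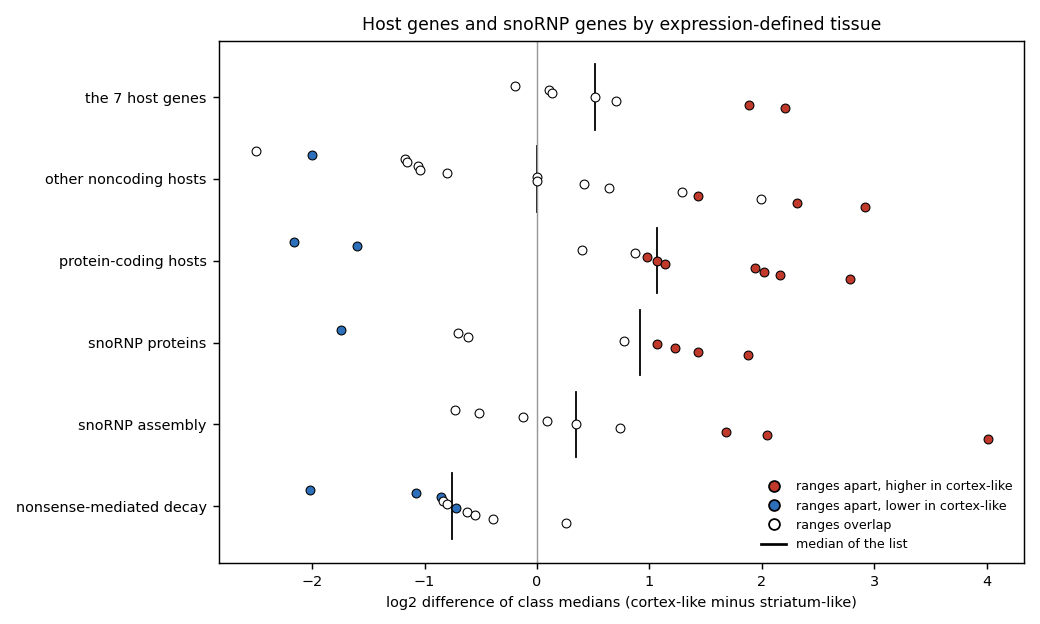
Log2 difference of class medians (cortex-like minus striatum-like, in log2 units) for each gene of the members and of the related lists, coloured where class ranges do not overlap and open where they do, with a vertical bar at each list median. Protein-coding hosts have a median of 1.07 and decay factors one of -0.76, and members range from -0.20 to 2.21.

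Genotype comparisons asked whether an Htt allele changed the members within a line and labelled tissue. They used limma on log2(scaled FPKM + 0.5) adjusted for labelled sex, with Benjamini-Hochberg correction over all entries tested, 6 libraries against 6, so a fold understates the change of low genes. No comparison of genotypes called any of the 6 tested members at an adjusted p under 0.05. The Δ12/+ and Δ12/Δ12 comparisons share their +/+ libraries.

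In the KO line, KO/+ against +/+ called 6.91% of entries in striatum and 0.0885% in cortex, and 0 of 6 members in either. In striatum no tested member had an unadjusted p under 0.05, and the differences ran from -0.14 for Gas5 to 0.22 for Snhg6. In cortex 2 members did. Snhg11 was 34.1 to 70.2 with a median of 52.1 in +/+ and 59.2 to 85.2 with a median of 73.7 in KO/+ libraries, a log2 difference of 0.52 ± 0.164 (SE, limma adjusted p = 0.22). Snhg8 was 13.4 to 22.3 with a median of 21.2 in +/+ and 13.1 to 17.1 with a median of 15.9 in KO/+ libraries, a difference of -0.32 ± 0.126 (limma adjusted p = 0.297). The groups overlapped in both genes. Snhg4 differed by -0.24 in striatum and 0.16 in cortex.

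In the Δ12 line, Δ12/+ against +/+ called 0.00663% of entries in striatum and 0.0662% in cortex, and 0 of 6 members in either. Snhg4 in cortex is the difference that brought the set together. Its +/+ libraries were 64.3, 50.2 and 43.9 in males and 39.3, 39.7 and 34.3 in females, and its Δ12/+ libraries 15.8, 11.4 and 13.0 in males and 12.3, 14.4 and 12.6 in females. The groups did not overlap, at a log2 difference of -1.71, with all 12 libraries in the cortex-like class. In striatum Snhg4 was 16.4 to 32.6 in +/+ and 11.8 to 31.6 in Δ12/+ libraries, which overlapped, at -0.39. The +/+ libraries labelled cortex also lay above those labelled striatum, the lowest at 34.3 and the highest at 32.6. Gas5 in cortex was 7.94 to 29.2 in +/+ and 22.9 to 32.7 in Δ12/+, a difference of 0.69 ± 0.281 (limma unadjusted p = 0.0324, adjusted p = 0.566). In striatum no tested member had an unadjusted p under 0.05.

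Δ12/Δ12 against +/+ called 28.3% of entries in striatum and 0.924% in cortex, and 0 of 6 members in either. These fits set a group that holds both classes against one that is cortex-like throughout. In cortex Snhg1 had a median of 8.46 against 19.9, a difference of -1.50 ± 0.438 (limma adjusted p = 0.0697), and -0.46 with labelled males alone, which are of the cortex-like class. Gas5 in cortex had a median of 29.8 against 18.2, at 0.87 ± 0.274 (limma adjusted p = 0.0706), with the groups overlapping. Without the male 2 library of cortex Δ12 +/+, 1 member passed the test in cortex, Snhg1 at -1.63 (limma adjusted p = 0.0376), in a fit that called 24.5% of all entries. In striatum Snhg1 had a median of 8.53 against 15.6, at -0.86 ± 0.404 (limma adjusted p = 0.112), and at 0.28 with males alone. Snhg4 differed by -0.93 in striatum and -2.03 in cortex, and by -0.02 and -1.22 with males alone. Its cortex values reuse +/+ libraries of the difference that brought the set together.

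Among the related lists, no gene passed in Δ12/+ in either tissue, in Δ12/Δ12 cortex or in KO/+ cortex. Smg5, a decay factor gene, was higher in KO/+ striatum, at 0.34 ± 0.085 (limma adjusted p = 0.0371). In Δ12/Δ12 striatum, where classes are mixed, 1 of 11 protein-coding hosts rose and 5 fell, 2 of 8 core protein genes fell, 3 of 9 assembly genes fell and 4 of 10 decay genes rose, beside 28.3% of all entries called. Of 16 entries of other noncoding hosts 3 rose, all of Snhg14, and 1 fell, Snhg20 at -1.43 ± 0.474 (limma adjusted p = 0.0464). Cct6a, a chaperonin subunit gene and snoRNA host, was at -1.22 ± 0.263 there (limma adjusted p = 0.0296).

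Whether a genotype difference depended on labelled tissue was asked with an interaction term over 24 libraries, and 0% of entries passed for KO/+, Δ12/+ or Δ12/Δ12. At an unadjusted p under 0.05 limma gave 1788, 969 and 452 entries, with 3, 1 and 1 of the 6 members among them. In KO/+ those were Snhg8 at 0.44, Snhg11 at -0.60 and Gas5 at -0.30 (limma adjusted p = 0.332, 0.347 and 0.397). Gas5 was the member in both Δ12 fits, at -0.72 and -0.73 (adjusted p = 0.745 and 1.0). The labelled tissues were also compared directly, and 0% of entries passed in the KO line and in the Δ12 line +/+ and Δ12/+ libraries, with 1008 and 818 entries at an unadjusted p under 0.05. No member was among the first and Gas5 was among the second, at 0.35 ± 0.165 (limma adjusted p = 0.872). These interaction and tissue fits have no mouse term, although each labelled mouse has a library of both tissues. With a block for mouse, 0 of 6 members passed in any of them.

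The +/+ mice of the lines differed widely. KO line +/+ against Δ12 line +/+ called 79.4% of entries in striatum (41.9% higher and 37.4% lower) and 68% in cortex (36.5% higher and 31.6% lower), and 4 of 6 members in each, a share no larger than that of all entries. Line and expression class coincide here and cannot be told apart. The members called were Snhg1, Snhg6 and Snhg12, lower in the KO line, and Gas5, higher in it, in both tissues. The Gas5 direction in striatum turned to -0.10 on FPKM as deposited, a scaling that moved the median of all entries from 0.05 to -0.23 in striatum and from 0.07 to -0.16 in cortex. That scaling called 5000 entries higher and 7053 lower in striatum, in place of 6588 and 5881, and 4418 higher and 5702 lower in cortex, in place of 5760 and 4991.

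Snhg1 in striatum was 9.60 to 19.5 with a median of 15.6 in Δ12 line +/+ and 3.18 to 5.51 with a median of 3.65 in KO line +/+ libraries. The groups did not overlap, at a log2 difference of -1.74 ± 0.195 (limma adjusted p = 5.91e-06). In cortex its levels were 12.6 to 52.1 against 2.79 to 4.95, at -2.34 ± 0.292 (limma adjusted p = 2.52e-05). Snhg12 in striatum was 6.99 to 16.1 against 4.60 to 9.76, at -0.75 ± 0.209 (limma adjusted p = 0.00597), and in cortex 9.37 to 32.4 against 5.52 to 8.72, at -0.99 ± 0.247 (limma adjusted p = 0.00387). Its groups overlapped in striatum and not in cortex.

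Snhg6 was lower by smaller amounts, at -0.64 ± 0.175 in striatum (limma adjusted p = 0.00566) and -0.39 ± 0.143 in cortex (limma adjusted p = 0.0324). Gas5 in striatum was 22.2 to 29.6 in Δ12 line +/+ and 27.2 to 36.6 in KO line +/+, at 0.22 ± 0.095 (limma adjusted p = 0.0485). With an adjusted p this near the threshold, Gas5 in striatum no longer passed with a pseudocount of 0.1 (adjusted p = 0.0525). In cortex Gas5 was 7.94 to 29.2 against 21.8 to 30.9, at 0.76 ± 0.28 (limma adjusted p = 0.0305). The cortex count fell from 4 members to 2, Snhg1 and Snhg12, without the male 1 library of Δ12 +/+ or without the male 2, male 3 or female 3 library of KO line +/+. Snhg8 and Snhg11 did not pass in either tissue, at -0.13 and -0.10 in striatum and 0.12 and -0.38 in cortex. On FPKM as deposited both passed in striatum, at -0.44 and -0.42 (limma adjusted p = 0.00878 and 0.00838), and Snhg11 passed in cortex at -0.63 (limma adjusted p = 0.00474), while Gas5 in cortex no longer did (0.52, adjusted p = 0.103). Snhg4 differed by -2.19 in striatum and -3.41 in cortex, with no overlap in either. Its cortex value reuses the Δ12 line +/+ libraries of the difference that brought the set together.

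The related lists were counted in the same comparison. Of 11 protein-coding hosts, 9 were lower and 2 higher in the KO line in striatum, and 8 lower and 2 higher in cortex. Of 8 core protein genes, 5 were lower and 3 higher in each tissue, and of 10 decay genes 8 were higher and 1 lower in each. Of 9 assembly genes, 6 were lower and 2 higher in striatum and 4 lower in cortex. Of the other noncoding hosts, 6 were lower and 7 higher of 15 entries in striatum, and 4 lower and 5 higher of 16 in cortex. Snhg14 alone gave 6 of the higher and 1 of the lower entries in striatum and 5 and 1 in cortex. Without it, 5 were lower and 1 higher of 8 in striatum and 3 lower and 0 higher of 9 in cortex. The lower ones include Snhg7 in both tissues, an entry of 139 bases whose FPKM rests on a very small effective length. Its medians were 0 against 803 in striatum and 0 against 4940 in cortex. All these list counts stand beside the 79.4% and 68% of all entries called. In cortex the assembly genes and the other noncoding hosts had a smaller share called than that.

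**Figure D4:**
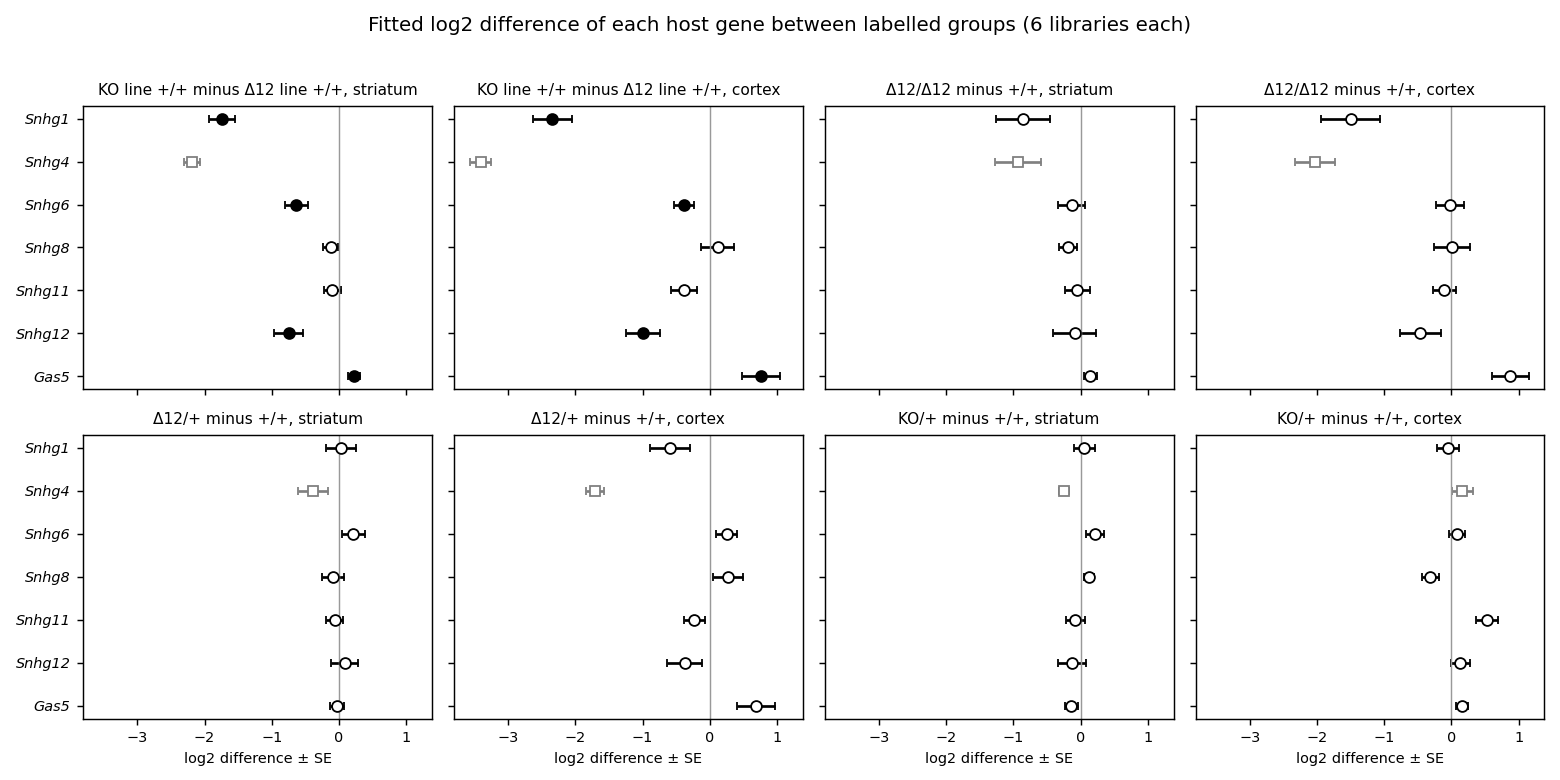
Log2 difference (with SE bars) of each member in the genotype and line comparisons, by labelled tissue, with filled points for members that passed the test, open points for those that did not and a grey square for Snhg4, which was not tested. Snhg1 falls to -1.74 and -2.34 between lines, and no tested member is called between genotypes.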

How the data were processed

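RNA was extracted with the RNeasy Mini Plus kit and libraries were made with the NEBNext Ultra II Directional kit after rRNA depletion and sequenced on a NovaSeq6000, per the labels. The submitters' processing notes name bcl2fastq 2.20, Trimmomatic 0.30, TopHat2 2.0.14, SAMtools 1.3, HTSeq 0.6.1p1 and the build GRCm38.p4, without roles. The authors deposited FPKM (fragments normalised to transcript length and library depth) with interval bounds in 1 table per library, and the program that made the tables is not given in the sources used here. Of 47597 entries, 23 lacked an OK status in some library and were dropped, and 47574 were used. One library labelled striatum KO/+ (female 3) has a title that names the Δ12 line and was grouped by its genotype label.

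FPKM was divided by median-of-ratios size factors (0.761 to 1.376) from 13235 entries above 0 in every library, since entries of at most 300 bases held 24.0% to 99.2% of summed FPKM. Differences were fitted with limma 3.58.1 in R 4.3.3 on log2(scaled FPKM + 0.5), with labelled sex as a covariate, for entries with a mean of at least 0.5, and p-values were Benjamini-Hochberg adjusted over all entries tested. A ± value is a standard error of the fit. Classes were cut at 100 FPKM of Slc17a7. Depth, 12700000 to 27500000 fragments with a median of 17000000, was estimated from the deposited intervals of 4104 single-transcript genes spanning 2000 bases or more and is approximate. Coordinates of 40537 entries matched GENCODE M21 on GRCm38, the source of lengths and snoRNA sequences, and RefSeq start sites are on GRCm38.p6.

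The members and lists were chosen with earlier results of these data known, and the tests were checked on simulated data. All 7 members are named, with the 3 entries most like each, among entries with a mean of at least 5 in both classes and outside the member's locus. Alternatives were a pseudocount of 0.1, no filter, FPKM as deposited, no sex covariate, a replicate block, labelled males alone or class as a covariate for Δ12/Δ12, and each library left out in turn. Leaving out both the male 1 and female 1 libraries of cortex Δ12 +/+ was added after seeing the data. Replicate numbers name mice, and the cortex and striatum libraries of 1 labelled mouse had deviations with a mean correlation of 0.132 (30 pairs, -0.16 to 0.656). Between genotypes and lines the numbers name different mice, with mean correlations of -0.069 to 0.028.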

Additional observations from a re-analysis of the deposited data

Results flagged for a closer look

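Of 70 groups of 6 libraries (7 members in 10 labelled groups), 8 had a highest library standing apart from the rest. The gap to the next value, divided by the group's range, was above Dixon's critical value there. Chance gives about 1 in 20 groups where values are normally distributed and groups independent. The ratio was taken on unlogged scaled FPKM and the members share libraries, so 8 of 70 is not read as an excess. Snhg1 and Snhg12 stood apart in the same library, female 1 of cortex Δ12 line +/+. Snhg1 was 52.1 scaled FPKM there beside 21.7 in the next library (ratio 0.77), and Snhg12 was 32.4 beside 15.6 (ratio 0.731). Snhg8 was 38.0 in male 1 of that group beside 18.3 (ratio 0.777) and 25.9 in male 3 of cortex Δ12/+ beside 22.0 (ratio 0.675).

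Snhg4 was 32.6 in male 3 of striatum Δ12 line +/+ beside 22.2 (ratio 0.639) and 31.6 in female 3 of striatum Δ12/+ beside 16.3 (ratio 0.771). Snhg12 was 10.5 in male 1 of cortex KO/+ beside 7.58 (ratio 0.635) and 9.31 in male 3 of striatum KO/+ beside 5.95 (ratio 0.639). Without male 1 and female 1 of cortex Δ12 line +/+, a choice made after seeing the data, the line difference in cortex was -2.01 for Snhg1 and -0.73 for Snhg12, and both still passed the test. Gas5 did not pass there, at 0.36 (limma adjusted p = 0.0673).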

How the results depend on the processing

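Counts of called members were recomputed 290 times and 285 stayed within 1.5 times of the reported count. For every comparison of genotypes or labelled tissues the reported count was 0, so this is largely 0 staying at 0. Leaving out 1 library at a time gave 0 to 1 members for Δ12/Δ12 in cortex and 2 to 4 for the line comparison in cortex. On FPKM as deposited, Gas5 in the striatum line comparison turned to -0.097 and Snhg8 in the cortex one to -0.13, and Snhg8 ran from -0.003 (without the male 2 library of cortex Δ12 line +/+) to 0.342 (without male 1) as libraries were left out. None of these Snhg8 values passed the test. Snhg1 in Δ12/Δ12 striatum turned to 0.281 with labelled males alone and with class as a covariate, settings in which that estimate rests on cortex-like libraries. The causes were not tested. With the replicate block, 3 members were called between lines in striatum (4 without it) and 4 in cortex, Gas5 in striatum not passing (adjusted p = 0.114), and no other member call changed. With the block, 302 entries in place of 1093 were called for KO/+ in striatum and 9 in place of 145 for Δ12/Δ12 in cortex. Labelled males alone called 2 entries in place of 4381 for Δ12/Δ12 in striatum. Over the settings other than leaving out 1 library, KO/+ in cortex called 0 to 110 entries (14 reported) and Δ12/+ in cortex 3 to 19 (10 reported). Leaving out 1 library gave 560 to 1243 entries for KO/+ in striatum, 1 to 19 for KO/+ in cortex, 5 to 41 for Δ12/+ in cortex, 5 to 6208 for Δ12/Δ12 in striatum and 12 to 3844 for Δ12/Δ12 in cortex. On FPKM as deposited, KO/+ in striatum gave 23 higher and 283 lower (555 and 538 reported) and Δ12/Δ12 in striatum 1291 and 3045 (2278 and 2103 reported). A further 57 member differences were recomputed, those of Snhg4 in the interaction and direct tissue fits among them. The others were of tested members with weak or no signal, of which 24 changed sign in some setting and 0 passed the test. Snhg4 had no test and its sign was not counted, and 0 of its values here moved by over 1 SD of the fit. Both Snhg1 and Snhg4 stayed the members without class overlap in the alternatives run. Low members have wide deposited intervals (median half-width 38.7% for Snhg1, 34.0% for Snhg12 and 4.84% for Snhg11), which limits small differences.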
